A study of Bos taurus with 4 samples.

Results

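The transcripts described here encode feedback inhibitors of the ERK pathway, from the Sprouty (SPRY), SPRED and dual-specificity phosphatase (DUSP) families, in bovine gamma delta T cells given an apple polyphenol extract. The members were chosen by gene symbol from a list of 10. SPRY1, SPRY2, SPRED1 and DUSP1 had a probe set named in the platform annotation, so that 4 of the 10 were measured, among 9155 named genes in all. SPRY4, SPRED2, DUSP2, DUSP4, DUSP5 and DUSP6 were not analysed here. The list was drawn up with the response to the extract already known, so the changes of the members with treatment are given as a description, without a test.

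Gamma delta T cells are lymphocytes with an antigen receptor made of gamma and delta chains, and they are abundant in the blood of young cattle. They were sorted from peripheral blood to a stated purity above 97%, rested overnight, and then kept for 4 h with the extract in water (apple polyphenol, APP, 42.2 µg/ml per the series' design text) or with phosphate-buffered saline (PBS), the vehicle. The cells came from 2 calves, 301 and 303, giving 2 APP arrays and 2 PBS arrays, with 1 array of each treatment per calf. The labels give an age of 1 to 6 months, whereas the design text calls the calves neonatal. No genotype or breed is given, and the part of the extract that is polyphenol, its source and its endotoxin content were not stated.

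In the ERK pathway a receptor at the cell surface activates RAS, which starts a cascade of the kinases RAF, MEK and ERK, and ERK then switches on transcription of early genes. Some of those early genes encode brakes. Sprouty and SPRED proteins act upstream, between the receptor, RAS and RAF, while dual-specificity phosphatases remove phosphate from the MAP kinases themselves. In T cells the same cascade is engaged by the antigen receptor, and transcripts of several of these inhibitors are short-lived and quickly induced.

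The deposited value of a probe set is a linear ratio to its own median over the 4 arrays. A ratio of 1 is therefore the middle of the 4 arrays, differences between arrays can be read, and the level of one gene cannot be set against that of another. The level being lost, the labelled cell type could not be checked from the presence of its markers, and a probe set near background in one treatment could not be recognised. On this platform each of the 4 members was represented by 1 probe set, so no second probe set was available as a check within a gene. Fewer cells of a type and less RNA per cell cannot be told apart in such bulk samples.

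SPRY1, a Sprouty protein that restrains receptor signalling to RAS, had the largest difference of the members between treatments. Its ratio was 1.854 and 2.134 in APP cells of calves 301 and 303, against 0.0619 and 0.110 in PBS cells of the same calves. Both APP arrays lay far above both PBS arrays, and the groups did not overlap. The log2 ratio averaged 0.99 ± 0.14 in APP cells and -3.60 ± 0.59 in PBS cells (SD, n = 2 each). The log2 change was 4.90 in calf 301 and 4.28 in calf 303, or 4.59 ± 0.44 in the mean (SD, n = 2 calves), which is 24.1-fold. By size of rise SPRY1 stood at rank 5 among the 9155 named genes. After quantile normalization of the log2 ratios across the arrays the change was 3.84, and scaled to the hybridization controls it was 3.74.

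DUSP1, a nuclear phosphatase that inactivates p38, JNK and ERK kinases, came next. The ratio was 2.623 and 1.679 in APP cells of calves 301 and 303, against 0.306 and 0.281 in their PBS cells. Again both APP arrays were above both PBS arrays. The PBS values of the calves were close together, with a log2 mean of 1.07 ± 0.46 in APP cells and -1.77 ± 0.09 in PBS cells (SD, n = 2 each), so most of the spread between the animals was in the APP arrays. The log2 change was 3.10 in calf 301 and 2.58 in calf 303, a mean of 2.84 ± 0.37 (SD, n = 2 calves) or 7.16-fold, at rank 29 of the named genes. Scaled to the hybridization controls it was 1.99.

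SPRY2, the closest relative of SPRY1 among the members measured, was set apart more by animal than by treatment. Its ratio was 0.755 and 2.089 in APP cells of calves 301 and 303, against 0.645 and 1.233 in PBS cells. The groups overlapped, because the PBS array of calf 303 was higher than the APP array of calf 301. Within each calf the APP array was the higher one, with a log2 change of 0.23 in calf 301 and 0.76 in calf 303, a mean of 0.49 ± 0.38 (SD, n = 2 calves) or 1.41-fold. The sign of this mean hung on the scaling, and scaled to the hybridization controls it stood at -0.36. Fits that left out 1 array had no calf term, so part of the calf difference entered their differences of group means. These were -0.24 without the APP array of calf 303 and 1.23 without that of calf 301. They were 0.03 without the PBS array of calf 301 and 0.96 without that of calf 303. The pair left in these fits gave 0.23 where an array of calf 303 was dropped and 0.76 where one of calf 301 was.

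SPRED1, an inhibitor that recruits the RAS-inactivating protein neurofibromin to the membrane, differed between treatments by less than the other members did in the values as deposited. Its ratio was 0.857 and 1.001 in APP cells of calves 301 and 303, against 0.988 and 1.089 in PBS cells. The APP array was the lower one in both calves, but the groups overlapped. The log2 change was -0.21 in calf 301 and -0.12 in calf 303, with a mean of -0.16 ± 0.06 (SD, n = 2 calves). Leaving out single arrays moved the difference of group means between -0.28 and -0.05. It was -1.01 under scaling to the hybridization controls.

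**Figure D1:**
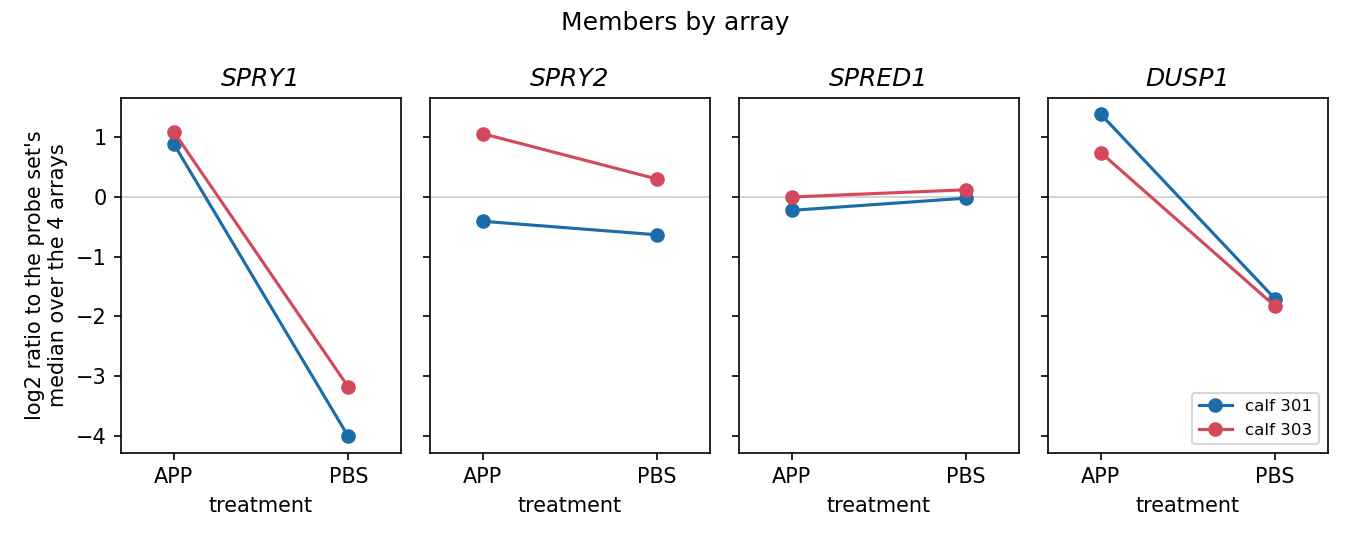
Log2 ratio of each member to its probe set's median over the 4 arrays, with a panel per gene. Points are single arrays (APP left, PBS right) and lines join the arrays of 1 calf. SPRY1 and DUSP1 lie higher on both APP arrays than on both PBS arrays, whereas the lines of SPRY2 are set apart by calf.

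Of the 4 members, SPRY1 and DUSP1 were at least 2-fold higher with APP in both calves, where 3.5% of all named genes met that rule, and none was 2-fold lower in both, where 6.29% did. The same 2 members had no overlap between treatments with APP higher, beside 36.6% of all named genes. Since the members were chosen with this comparison known, nothing is read from these counts. Among themselves the members spanned log2 changes from -0.16 to 4.59, and the Sprouty genes alone from 0.49 to 4.59. The median change of all named genes was 0.01.

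The change was larger in calf 301 than in calf 303 for SPRY1, by 0.63 on the log2 scale, and for DUSP1, by 0.52. For SPRY2 the calves stood in the opposite order, with a gap of -0.53 for calf 301 minus calf 303. The gap of SPRED1 was -0.08. Of all named genes, 2.77% had a wider gap in either direction than SPRY1, 4.98% a wider one than SPRY2 and 5.32% a wider one than DUSP1. With 1 array per calf and treatment no array is left over to estimate error, and whether the response differed between the calves was not tested.

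**Figure D2:**
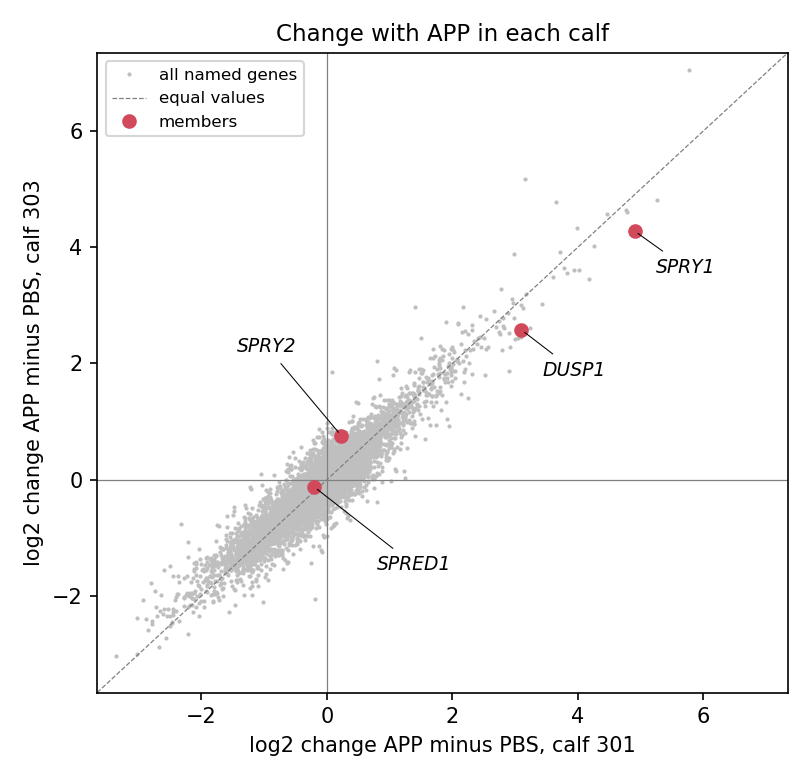
Log2 change, APP minus PBS, in calf 301 (horizontal axis) and calf 303 (vertical axis) for all 9155 named genes (grey) and the 4 members (red), with a dashed line of equal values. SPRY1 (4.90 and 4.28) and DUSP1 (3.10 and 2.58) lie at the upper end and below the dashed line, and SPRY2 (0.23 and 0.76) lies above it.

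The difference between the calves is a contrast on which the choice of members did not rest, and it was tested over all genes with limma, with the treatment as the other term. SPRY2 was 2.30-fold higher in calf 303 than in calf 301 (log2 difference 1.20, SE 0.14, adjusted p = 0.0119, limma). It was higher in both treatments, by 1.47 on the log2 scale in APP cells and by 0.93 in PBS cells, and both arrays of calf 303 lay above both of calf 301. Over all named genes 1.27% were higher and 0.437% lower in calf 303 by this test, and 28 of 9155 had a larger difference in either direction than SPRY2. The call was lost after quantile normalization (log2 difference 1.15, adjusted p = 0.106, limma). In fits that left out 1 array and had no treatment term it lay between 0.82 and 1.58. SPRY2 did not pass in these fits, and neither did any other gene. They left 1 array for one of the calves, and the treatment added to their error. The part of each in the lost calls was not tested. With 2 animals this difference describes these calves only.

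The other members did not pass. SPRY1 differed by 0.52 (95% interval 0.15 to 0.88, adjusted p = 0.158, limma), a difference that was 0.20 in APP cells and 0.83 in PBS cells, so that the calves were furthest apart where the ratio was lowest. DUSP1 differed by -0.38 (95% interval -0.71 to -0.06, adjusted p = 0.227, limma), with -0.64 in APP cells and -0.12 in PBS cells. SPRED1 differed by 0.18 (95% interval -0.05 to 0.41, adjusted p = 0.389, limma). For SPRED1 too both arrays of calf 303 lay above both of calf 301, as they did for 8.47% of all named genes, and for SPRY1 and DUSP1 the arrays of the calves overlapped. These intervals are not adjusted for the number of genes. The count of members that passed was thus 1 of 4.

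In the same contrast 2 of the 12 measured T cell and alpha beta T cell markers passed. CD8B, a chain of the CD8 coreceptor, was higher in calf 303 by 2.30 on the log2 scale (adjusted p = 0.000499, limma) and CD2, an adhesion receptor of T and NK cells, by 1.10 (adjusted p = 0.00382). After quantile normalization CD8B differed by 2.24 (adjusted p = 0.0398, limma) and CD2 by 1.03 (adjusted p = 0.0929, limma). Fits that left out 1 array had no treatment term, so the treatment added to their error. Neither marker passed in them, nor did any other gene. There CD8B lay between 1.97 and 2.62 and CD2 between 0.95 and 1.25. These were 1 of 3 measured alpha beta T cell markers and 1 of 9 T cell markers. None of 10 monocyte and dendritic cell, 3 B cell, 3 NK cell or 5 erythroid and platelet markers passed in either direction. The mean ratio of the alpha beta T cell markers was 1.18 and 1.40 in APP and PBS cells of calf 303, against 0.79 and 0.83 in those of calf 301. CD8B alone carried that mean, which without it was 1.02 and 0.92 in calf 303, against 1.04 and 1.00 in calf 301, and the list's median difference was -0.03. The median of the T cell markers was 0.07. The part of CD8B and CD2 in the SPRY2 difference was not tested.

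**Figure D3:**
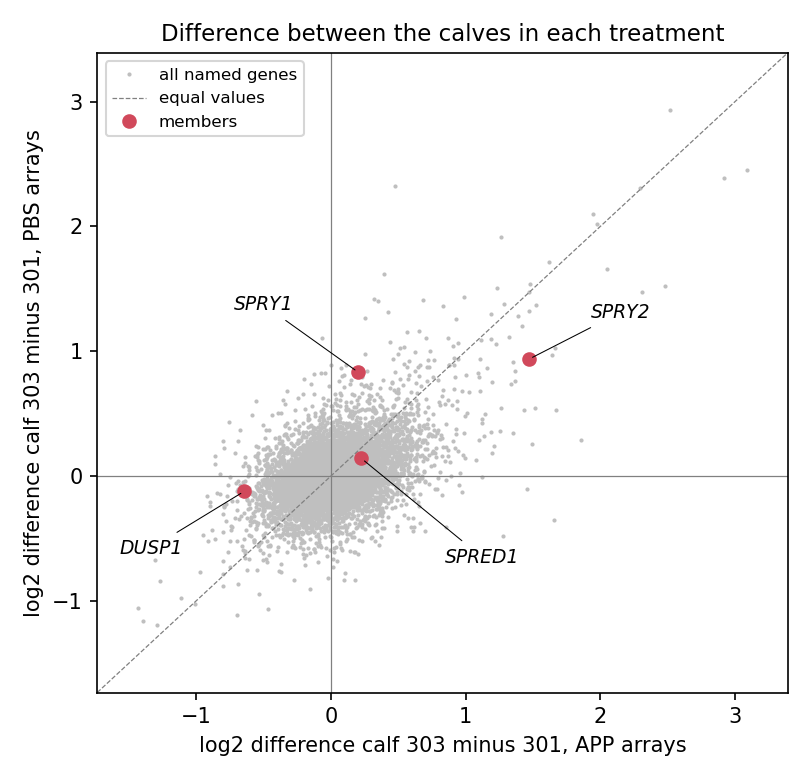
Log2 difference between the calves, calf 303 minus calf 301, in APP cells (horizontal axis) and in PBS cells (vertical axis) for all 9155 named genes (grey) and the 4 members (red), with a dashed line of equal values. SPRY2 (1.47 and 0.93) is high on both axes, whereas SPRY1 (0.20 and 0.83) stands apart mainly in PBS cells and DUSP1 (-0.64 and -0.12) mainly in APP cells.

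The genes whose 4 log2 ratios were most like those of SPRY1, by Euclidean distance over the 4 arrays, were CDKN1A, an inhibitor of cyclin-dependent kinases, at a distance of 0.27, CA2, a carbonic anhydrase, at 0.65, NOCT at 0.70 and PLAU, the urokinase plasminogen activator, at 0.76. CDKN1A was close to it on each array, with log2 ratios of 0.90 and 1.23 in APP cells of calves 301 and 303, against -3.88 and -3.37 in PBS cells. CDKN1A shared with SPRY1 a higher value in calf 303 than in calf 301 in both treatments. As it was picked for closeness on the same arrays, nothing is read from this.

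Nearest to DUSP1 were PPP1R15A, a phosphatase subunit of the stress response, at a distance of 0.28, the transcription factors NFIL3 at 0.40 and MAFF at 0.42, and SLC3A2, a chain of amino acid transporters, at 0.44. PPP1R15A had log2 ratios of 1.13 and 0.73 in APP cells of calves 301 and 303, against -1.62 and -1.78 in PBS cells. All 4 of these genes were higher in the APP array of calf 301 than in that of calf 303, as DUSP1 was. They were picked for closeness on the same 4 arrays, so this likeness follows from the choice. The distances rest on 4 arrays and describe these arrays.

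The other genes of the pathway were grouped by role in 8 lists, which held 97 genes, 56 of them measured. By limma with the calf as a block, 22 of the 56 rose with APP and 15 fell, beside 23% and 29.7% of all named genes. Of the 22, 11 were transcripts known to be induced by ERK, a list made with the response of early genes already known. The share that rose is therefore not read against that of all named genes. The median log2 change of the 56 was 0.07, against 0.01 for all named genes. The hybridization controls, spiked bacterial transcripts, were themselves higher on the APP arrays, with log2 differences of 0.76 (calf 301) and 0.94 (calf 303). Scaling to them shifted the median of all genes to -0.84, so the directions below hold for the values as deposited. Under that scaling 7 of the 56 rose and 42 fell. RASGRP2 had an adjusted p of 1.2e-66 there, against 2.1e-05 as deposited (limma), so its calls are not comparable with the 22 and 15 above. Without PBS 301 the counts were 12 and 8, and without PBS 303 they were 12 and 7.

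Upstream of RAS, 2 of 5 measured activators and adaptors rose and 1 fell. RASGRP2, an activator of RAP proteins in blood cells, fell 3.63-fold (-1.91 in calf 301 and -1.82 in calf 303). The adaptor genes GRB2 (0.42) and SHC1 (0.33) rose, but under scaling to the hybridization controls were at -0.43 and -0.52. Neither passed without the calf as a block, SHC1 passed in none of the 4 fits that left out 1 array, and GRB2 passed only in the one without APP 303. RASGRP1, a RAS activator of T cells, changed by 0.01 (adjusted p = 0.913, limma).

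Of 8 RAS and RAS GTPase-activating proteins, 4 fell and 1 rose. RASA3, which inactivates RAS and RAP, fell by 1.22 on the log2 scale (SE 0.11, adjusted p = 0.000135, limma). HRAS fell by 0.37 and NRAS by 0.35. RASA2, also an inactivator of RAS, rose by 0.45 in the mean of its probe sets, which differed (0.01 and 0.89), and was at -0.40 under scaling to the hybridization controls. Without 1 array 1 to 3 of these 8 fell and 0 or 1 rose.

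None of 7 genes of the RAF, MEK and ERK cascade and its scaffolds rose, and 3 fell. MAP2K1, which encodes MEK1, fell by 0.98 (SE 0.10, adjusted p = 0.000256, limma). MAPK3, which encodes ERK1, fell by 0.71, with -0.89 in calf 301 and -0.54 in calf 303. PEBP1, which encodes an inhibitor of RAF, fell by 0.52. BRAF changed by 0.06 (adjusted p = 0.624). Without PBS 301 or without PBS 303, 1 of the 7 passed.

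The kinases that ERK activates split. RPS6KA5 and RPS6KA4, which encode the nuclear kinases MSK1 and MSK2, fell by 1.39 and 1.09, and RPS6KA1, which encodes RSK1, fell by 0.57. RPS6KA3, of the same RSK family, rose by 1.14, with 1.20 (calf 301) and 1.08 (calf 303), and was at 0.29 under scaling to the hybridization controls. MKNK1 did not pass (-0.25, adjusted p = 0.0913, limma). Of these 5 kinases 3 fell and 1 rose. RPS6KA1 did not pass without PBS 301 or without PBS 303.

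Transcripts known to be induced by ERK rose in 11 of 11 measured cases, with a median log2 change of 1.46, although early genes of this kind were already known to respond in these data when the list was made. The largest were those of FOS (2.75, with 1.74 and 3.75 for its probe sets), JUNB (2.08) and FOSL1 (1.94), subunits of the AP-1 transcription factor, and of MYC (1.85). EGR1, an early transcription factor often used as a readout of ERK, rose by 1.46 (SE 0.10, adjusted p = 5.98e-05, limma). The smallest rise was that of the cyclin gene CCND1, 0.21 in calf 301 and 0.60 in calf 303. After quantile normalization CCND1 did not pass (0.50, adjusted p = 0.0522, limma). With no calf block 10 of the 11 passed. Scaled to the hybridization controls the median was 0.61, with 6 of the 11 higher and 2, IER2 and CCND1, lower. Without either PBS array 8 of the 11 passed, all higher.

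**Figure D4:**
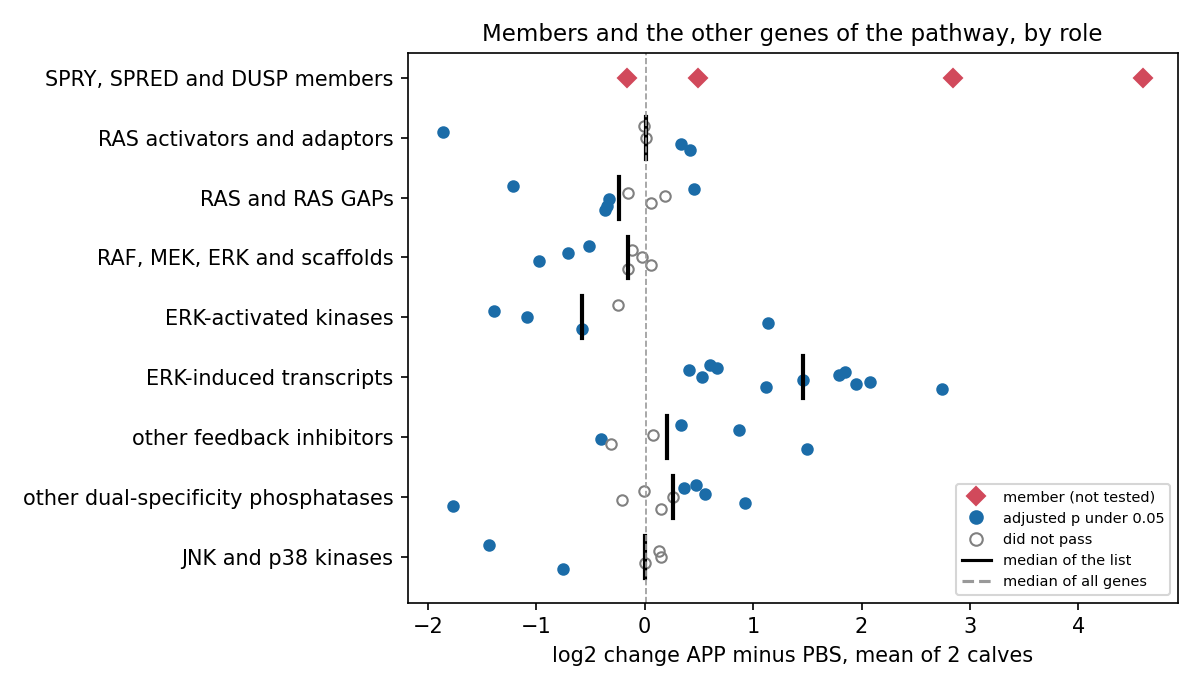
Log2 change, APP minus PBS, as the mean of 2 calves for the 4 members (red diamonds, not tested) and for the other measured genes of the pathway, by role. Filled circles passed an adjusted p of 0.05 in limma and open circles did not, black bars are list medians, and the dashed line is the median of all named genes (0.01). All 11 ERK-induced transcripts lie to the right of it, while most genes of the RAF, MEK and ERK list lie to its left.

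Of 6 other feedback inhibitors, 3 rose and 1 fell. ERRFI1, an inhibitor of the epidermal growth factor receptor family, rose by 1.50 (1.46 in calf 301 and 1.54 in calf 303, with 1.09 to 1.91 over its 4 probe sets). It also rose when scaled to the hybridization controls (0.65). TRIB1, a pseudokinase, rose by 0.87, with probe sets at 0.20 and 1.53, and the cytokine signalling inhibitor SOCS3 rose by 0.33. Scaled to the hybridization controls TRIB1 stood at 0.02 and SOCS3 at -0.52. DOK2, an adaptor that dampens RAS, fell by 0.41, with -1.29 to 0.09 over its 3 probe sets. DOK2 and SOCS3 did not pass in any of the 4 fits that left out 1 array.

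Relatives of DUSP1 moved in both directions. Of 9 other dual-specificity phosphatase genes measured, 4 rose, 1 fell and 4 did not pass, with a median log2 change of 0.26. DUSP7, a cytoplasmic phosphatase of the same ERK-selective subgroup as DUSP6, had log2 ratios of -1.30 and -0.99 in APP cells of calves 301 and 303, against 0.66 and 0.58 in PBS cells. Its groups were well apart, and it fell 3.40-fold (-1.77 ± 0.28, SD, n = 2 calves, adjusted p = 5.26e-05, limma). The fall of DUSP7 also held in each fit that left out 1 array, between -1.92 and -1.61.

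DUSP10, which acts on p38 and JNK, rose by 0.92, with 0.80 in calf 301 and 1.04 in calf 303 and with probe sets at 0.67 and 1.18. DUSP14 rose by 0.56, and its probe sets differed, at 0.20 and 0.92. STYXL2, listed with DUSP27 as a synonym, rose by 0.48, and DUSP26 by 0.36. Scaled to the hybridization controls DUSP10 stood at 0.07, DUSP14 at -0.29, STYXL2 at -0.37 and DUSP26 at -0.49. Without PBS 301 or without PBS 303, 1 of the 9 rose, and 2 of the 9 without either APP array. Among the JNK and p38 kinases that MAP kinase phosphatases act on, 2 of 5 genes fell and none rose. MAPK14, which encodes p38 alpha, fell by 1.44 (-1.82 to -1.14 over its 3 probe sets) and MAPK8, which encodes JNK1, by 0.76. MAPK8 did not pass without APP 301 or without PBS 303.

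Markers of other cell types, and of T cells themselves, moved with the treatment as well. All 3 measured B cell markers fell (median -0.80), beside 29.7% of all named genes. MS4A1 fell in the mean of its probe sets, which differed (-1.08 and -0.04). The mean ratio of the B cell markers was 0.72 and 0.76 in APP cells of calves 301 and 303, against 1.25 and 1.32 in PBS cells. Of 10 monocyte and dendritic cell markers 2 rose, CD68 by 2.31 and CD14 by 0.46. With no calf block 1 of the 10 rose, and after quantile normalization 3 did. The mean ratio of the 10 was 1.07 and 1.20 in APP cells, against 0.90 and 0.93 in PBS cells. Without CD68, a choice made after seeing the data, it was 1.01 and 1.03 in APP cells, against 0.95 and 0.99 in PBS cells, and the list's median change was 0.05. Of 9 markers of T cells and gamma delta T cells 5 fell and 1 rose, beside 29.7% and 23% of all named genes. The largest falls were those of CD163L1 (-1.08) and WC1.3 (-0.86), and CD5 rose by 0.62. Genes of the receptor complex CD3D (-0.13), CD3E (-0.08) and the gamma chain gene TRGC1, annotated as TARP (-0.01, 7 probe sets), did not pass. The mean ratio of these 9 was 0.83 and 0.95 in APP cells, against 1.06 and 1.15 in PBS cells. Among the other lists KLRD1 rose as 1 of 3 NK cell markers, CD8B fell as 1 of 3 alpha beta T cell markers, and none of 5 erythroid and platelet markers passed. CD14 (-0.39), KLRD1 (-0.55) and CD5 (-0.23) had the opposite sign under scaling to the hybridization controls. In the fits that left out 1 array, which had no calf term, KLRD1 and CD8B did not pass. CD8B was higher in calf 303 by 2.30 on the log2 scale, which adds to the error there. Its change was -0.63 in calf 301 and -0.65 in calf 303. Without 1 array 2 to 4 of the T cell markers fell. Their part in the changes of SPRY1, DUSP1 and the pathway genes was not tested.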

How the data were processed

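Transcripts were measured on 4 Affymetrix bovine arrays. RMA is the tool that the submitters' processing notes name for the authors' values, without a version. The deposited values are linear ratios, a unit found from the values: the middle 2 values of each of 24128 probe sets average between 0.982 and 1.001. The deposited ratios were log2 transformed here without further normalization. The 112 control probe sets were left out. Names came from the platform annotation, updated by identifier through RefSeq (ARS-UCD2.0, names only), giving 13292 probe sets with 1 gene, 86 with several and 9155 genes, whose probe sets were averaged. Treatment and calf were fitted together in limma 3.58.1 (R 4.3.3, lmFit and eBayes, two-sided, Benjamini-Hochberg over all genes, threshold 0.05). For the values as deposited the fit had 1 residual and 5.86 prior degrees of freedom. Arrays were paired by calf, as each animal named in a title gave cells to both treatments. Across genes, the calf difference in APP cells correlated with that in PBS cells (r = 0.509). An exact permutation test of 2 arrays against 2 cannot go below p = 0.333 and was not made. The number of arrays limits the precision, and scan dates or array batches were not stated. The fit was tested on simulated data. Figures were drawn with matplotlib 3.10.9.

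Members and lists were chosen with earlier results of these data known. Named genes are every member measured, the 4 genes nearest to SPRY1 and to DUSP1, and up to 4 genes per list with the largest change among those that passed in the same direction in both calves. EGR1, RASGRP1, BRAF, MKNK1, CCND1, IER2, DUSP26, CD8B, CD2, CD68, CD14, KLRD1, CD163L1, WC1.3, CD5, CD3D, CD3E, TRGC1 and MS4A1 were picked after their values were seen. Alternatives were 2 other scalings, a single probe set per gene, a robust variance prior, no block, probe sets in place of genes, and leaving out each array. Means of marker lists without CD8B or CD68 were added after seeing the data.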

Additional observations from a re-analysis of the deposited data

Results flagged for a closer look

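None of the members changed in opposite directions in the 2 calves, but 10 of the other pathway genes did, and none of the 10 passed the test of the mean change. A difference between the calves in these changes was not tested. Log2 changes are given for calf 301 first and calf 303 second. DOK1 changed by 0.0263 and -0.649, DUSP3 by -0.0908 and 0.387, MAPK10 by 0.231 and -0.225, and RASA1 by 0.0460 and -0.357. DUSP23 changed by -0.155 and 0.142, CBLB by -0.0459 and 0.208, RRAS by 0.155 and -0.0378, and MAP2K2 by 0.0573 and -0.108. GAB1 changed by -0.0897 and 0.0736, and RASGRP1 by -0.0200 and 0.0484.

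The 14 hybridization control probe sets, which the comparisons leave out, were higher on the APP arrays than on the PBS arrays, with log2 differences of 0.761 (calf 301) and 0.941 (calf 303).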

How the results depend on the processing

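Scaled to the hybridization controls, the log2 changes were 3.74 for SPRY1, 1.99 for DUSP1, -0.36 for SPRY2 and -1.01 for SPRED1; relative to the shifted median of -0.84 they were 4.58, 2.83, 0.48 and -0.17. Under that scaling 286 genes rose and 8182 fell, 7 and 42 of the pathway genes, and 532 genes were lower in calf 303. DUSP1 stood at -0.56 between the calves (adjusted p = 0.00804, limma). GRB2 (-0.43), SHC1 (-0.52), RASA2 (-0.40), SOCS3 (-0.52), STYXL2 (-0.37) and DUSP14 (-0.29) changed sign. RASGRP2 had an adjusted p of 1.2e-66 there, against 2.1e-05 as deposited (limma). Calls under that scaling, that of DUSP1 among them, are therefore not comparable with those of the values as deposited. Quantile normalization gave 3.84 for SPRY1, and 2 genes higher and 0 lower in calf 303 by limma (651 and 696 at an unadjusted p under 0.05), with SPRY2 at 1.15 (adjusted p = 0.106); the cause was not tested. The single probe set per gene gave 61 higher and 15 lower in calf 303. Over probe sets, 3919 rose and 5672 fell with APP, more features being tested. With no replicate block 1399 genes rose, 4 of 28 named pathway genes no longer passed. In this balanced design dropping the block cannot move a difference of means. The robust variance prior changed no call of a member or a named pathway gene, and gave 2121 genes that rose, 2722 that fell, and 123 higher and 42 lower in calf 303. Leaving out 1 array, fitted without the block, left 745 to 1292 genes that rose and 1305 to 2012 that fell, 12 to 17 and 7 to 13 of the pathway genes. Lowest among these were 745 and 1305 without PBS 303. SPRY1 lay at 4.18 to 5.01, DUSP1 at 2.52 to 3.16, SPRY2 at -0.24 to 1.23 and SPRED1 at -0.275 to -0.0514. For the calves, fits without 1 array have no treatment term, so the treatment adds to the error and to the difference: 0 genes passed in limma (26 to 41 higher and 3 to 6 lower at an unadjusted p under 0.05), with SPRY2 at 0.82 to 1.58, SPRED1 at 0.08 to 0.28, SPRY1 at -1.94 to 2.97 (-1.62 without APP 303, -1.94 without PBS 301) and DUSP1 at -1.93 to 1.17 (1.17 without APP 301, 0.91 without PBS 303). The signal over background is lost in ratios.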
